A study of Mus musculus with 8 samples.

Results

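The genes described here are 44 of the 18125 genes listed in 8 mouse macrophage RNA sequencing libraries. They encode the enzymes, membrane proteins and proton pump of the lysosome and were chosen by name. By role they fall into 13 proteases with Ifi30, 8 glycosidases, 7 proteins of lipid breakdown and lipid transfer, 10 membrane proteins and regulators, and 6 subunits of the proton pump. All 44 had a value above 0 in every library, and all 44 passed the filter on low counts in both cell types.

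Each of the 8 libraries is 1 group. Peritoneal macrophages (PM) of Slc6a8-/y mice, called knockout (KO), and of wild-type (WT) C57BL/6 mice were either stimulated for 12 hours with IFN-gamma at 10 ng/mL or left untreated. Bone marrow-derived macrophages (BMDM) of KO and WT mice were either stimulated for 6 hours with IL-4 at 10 ng/mL or left untreated. All PM had been elicited by thioglycollate (1 ml at 4%, taken after 3 to 4 days), and all BMDM had been grown in 10% M-CSF over 5 days. Slc6a8 is the gene of the creatine transporter on the X chromosome; the title of the series speaks of creatine and macrophage polarization. The labels name no Cre line or promoter for the knockout and do not say whether libraries of 1 genotype come from different animals, so p-values may measure only the spread between these libraries.

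Lysosomes break down protein, glycan, lipid and nucleic acid taken up from outside the cell or delivered by autophagy. A vacuolar ATPase (V-ATPase) pumps protons into the lumen, where most of the hydrolases need an acidic pH, and several cathepsins also trim antigens and invariant chain for MHC class II. The transcription factor TFEB, itself among the 44 genes, induces many lysosomal genes through an E-box in their promoters. IFN-gamma is the cytokine of classical macrophage activation and IL-4 that of alternative activation.

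Slc6a8 itself was read at 0.18 to 1.71 FPKM in the 4 KO libraries, against 39.5 to 163.5 FPKM in the 4 WT libraries. FPKM are fragments scaled to transcript length and to the library's total, so that levels of different genes can be compared. The total expected count was 10812678 to 11065427 in PM libraries and 20553654 to 21221526 in BMDM libraries. The fitted spread between libraries (common biological coefficient of variation) was 4.57% in BMDM and 10.4% in PM, and the smallest cytokine change called among the 44 genes was 0.17 in BMDM (Ctsl, a fall) and 0.32 in PM (Hexa, a rise) on the log2 scale. All 7 macrophage markers were above 1 FPKM in every library, and the summed level over up to 6 markers each of B cells, of T and NK cells and of dendritic cells stayed at or below 5.75 FPKM. The sums reached 9.78 FPKM for neutrophil markers, mostly S100a8, and 10.35 FPKM for markers of eosinophils, basophils and mast cells, mostly Siglecf, each in a stimulated PM library. Markers of fibroblasts and mesothelium were much higher, with sums of 171 to 374 FPKM in BMDM and 79.1 to 125 FPKM in PM. The collagen genes Col1a1, Col1a2 and Col3a1 made the sum higher in BMDM. Dcn went the other way, with 2.74 to 4.68 FPKM in BMDM and 31.5 to 36.4 FPKM in PM. Upk3b, at 0 in BMDM and 2.15 to 7.18 FPKM in PM, and Msln were also higher in PM.

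To show what the promoters of these genes share, their sequences were read from RefSeq (GRCm38.p6) and searched from 250 bases before to 50 bases after the start of transcription. The table had an entry for 37 of the 44 genes, with 42 windows. Asah1, Ctsb, Ctsh, Atp6v1b2, Atp6v0d2, Npc1 and Atp6v1h had none. The E-box core CACGTG, which reads the same on both strands, was in at least 1 window of 13 of the 37 genes (35.1%), against 8.09% of 27025 genes with a RefSeq window. The longer form TCACGTGA, which contains the core, was in 7 of 37 (18.9%), against 1.12% of all genes. The still longer GTCACGTGAC was in 0 of 37, against 0.370% of all genes. These shares describe letters in a window and carry no test.

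The 7 genes with the longer form are shown with 12 bases on each side, because they include genes that IFN-gamma moved up, moved down or left uncalled. Each line is read in the direction of its gene, with the motif in capitals.
Ctsd: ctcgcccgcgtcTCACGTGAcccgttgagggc
Gla: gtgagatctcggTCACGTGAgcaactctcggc
Atp6v1a: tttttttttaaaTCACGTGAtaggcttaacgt
Ifi30: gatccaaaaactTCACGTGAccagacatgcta
Ctsa: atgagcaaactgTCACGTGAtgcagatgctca
Mcoln1: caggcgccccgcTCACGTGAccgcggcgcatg
Atp6v0d1: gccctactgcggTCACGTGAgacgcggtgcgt

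These windows lie at chr7:142387907-142387938 (minus strand) for Ctsd, chrX:134601181-134601212 (minus) for Gla and chr16:44139372-44139403 (minus) for Atp6v1a. The others lie at chr8:70766841-70766872 (minus) for Ifi30, chr2:164833748-164833779 (plus) for Ctsa, chr8:3500461-3500492 (plus) for Mcoln1 and chr8:105566049-105566080 (minus) for Atp6v0d1. The motif began 99 bases upstream of the start site in Ctsd, 195 in Gla, 132 in Atp6v1a, 197 in Ifi30, 13 in Ctsa, 46 in Mcoln1 and 4 in Atp6v0d1. Gla and Ctsa each held a second copy. The other 6 genes with the core alone were Glb1, Gaa, Lamp1, Lgmn, Ctsl and Ctsf.

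Lamp1, which encodes a major membrane glycoprotein of the lysosome, held 4 copies of the core in a row of 62 bases at chr8:13159095-13159156 (plus strand), shown with each core in capitals.
Lamp1: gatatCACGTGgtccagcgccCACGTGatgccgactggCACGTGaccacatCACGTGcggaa

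The 44 genes together took up a larger share of the transcriptome in each PM library than in any BMDM library. They made up 6.48% of all FPKM in IL-4-stimulated KO BMDM, 6.81% in untreated KO BMDM, 6.31% in IL-4-stimulated WT BMDM and 6.61% in untreated WT BMDM. The shares were 10.2% in IFN-gamma-stimulated KO PM, 11.4% in untreated KO PM, 10.8% in IFN-gamma-stimulated WT PM and 11.4% in untreated WT PM. The median gene of the 44 stood at 205 to 224 FPKM in BMDM and at 286 to 334 FPKM in PM, where the median of all listed genes was 4.49 to 5.12 FPKM. Between 10 and 12 of the 44 were among the 100 most abundant genes of a BMDM library, and 14 to 17 among those of a PM library.

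**Figure D1:**
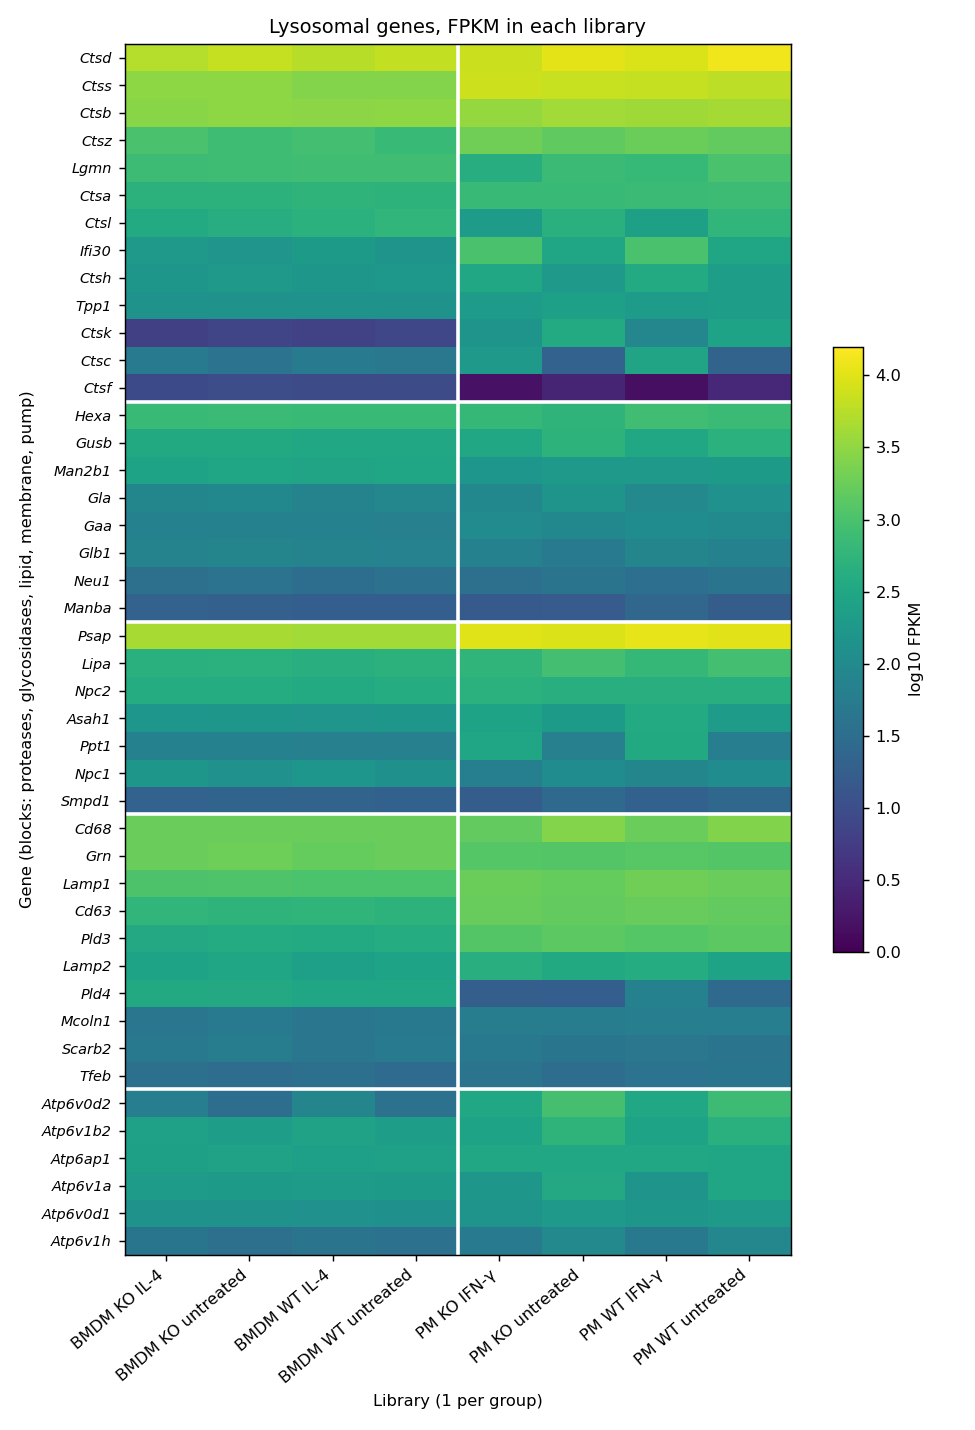
FPKM of the 44 lysosomal genes (rows, in blocks of proteases, glycosidases, lipid proteins, membrane proteins and pump subunits) in each of the 8 libraries (columns, 1 per group), as log10 FPKM in colour. Ctsd and Psap are the brightest rows, and Ctsf is the darkest in PM with 1.47 to 3.05 FPKM.

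Ctsd, the aspartyl protease cathepsin D, and Psap, the precursor of the saposins that help enzymes reach sphingolipids, were the most abundant. Ctsd ranged between 5409 and 6683 FPKM in BMDM and between 7439 and 13046 FPKM in PM. Psap ranged between 4140 and 4456 FPKM in BMDM and between 9417 and 11006 FPKM in PM. Ctss, the cathepsin that removes invariant chain from MHC class II, ranged between 6146 and 7634 FPKM in PM and stood above Ctsd in the stimulated KO library. Ctsf, a papain-family cathepsin, was the lowest of the 44 in PM at 1.47 to 3.05 FPKM and had 8.66 to 9.83 FPKM in BMDM. A count of 32 to 65 in PM libraries lies behind the Ctsf values, so their counting error is large.

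All 4 BMDM libraries were above all 4 PM libraries for 5 of the 44 genes (11.4%), against 37.2% of the 10994 genes whose mean reached 1 FPKM. All 4 BMDM libraries were below all 4 PM libraries for 22 of the 44 (50%), against 14.8% of those genes. The other 17 overlapped. The tables of the 2 cell types were made separately, so cell type, library depth and processing cannot be told apart and no test was made. In bulk libraries fewer cells of a type and less RNA per cell cannot be told apart either. Some macrophage markers differed as well. Csf1r had 1019 to 1234 FPKM in BMDM and 65.4 to 118 FPKM in PM. Adgre1 had 368 to 478 FPKM in BMDM and 31.8 to 48.9 FPKM in PM. Itgam and Lyz2 were also higher in each BMDM library than in each PM library. Cd68 overlapped, with 1724 to 1751 FPKM in BMDM and 1549 to 2626 FPKM in PM. Mertk (19.7 to 31.7 FPKM in BMDM and 22.0 to 85.0 FPKM in PM) and Fcgr1 overlapped too. All 7 markers summed to 11423 to 14041 FPKM in BMDM and 6072 to 10096 FPKM in PM. Their part in these differences was not tested.

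Ctsk, the cathepsin known from bone-resorbing osteoclasts, and Atp6v0d2, the d2 subunit of the V-ATPase also known from osteoclasts, stood farthest below in BMDM. Ctsk had 6.29 to 7.94 FPKM in BMDM and 87.2 to 372.6 FPKM in PM, a BMDM minus PM difference in log2(FPKM + 1) of -5.47 in untreated KO and -4.95 in untreated WT cells. Atp6v0d2 had 32.8 to 80.1 FPKM in BMDM and 328 to 907 FPKM in PM, a difference of -4.75 in untreated KO and -4.27 in untreated WT cells. The paralogue Atp6v0d1, which occupies the same place in the pump in most cells, had 127 to 141 FPKM in BMDM and 152 to 188 FPKM in PM, so the d2 subunit gene exceeded the d1 gene in PM and fell short of it in BMDM. Pld3, a lysosomal exonuclease of the phospholipase D family, had 346 to 397 FPKM in BMDM and 1176 to 1377 FPKM in PM. Its relative Pld4, an exonuclease of the same kind, ran the other way, with 290 to 359 FPKM in BMDM and 18.1 to 70.5 FPKM in PM. Grn, the precursor of granulins (1617 to 1845 FPKM in BMDM and 1184 to 1288 FPKM in PM), Man2b1, lysosomal alpha-mannosidase (273.5 to 306 and 160 to 193 FPKM), Npc1 and Ctsf were the others above in BMDM.

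With IFN-gamma in PM the lysosomal genes divided: Ctsc, Ppt1 and Ifi30 rose several-fold, 4 of the 6 pump genes fell, and hydrolases were among both the genes that rose and those that fell. An additive edgeR quasi-likelihood fit set the 2 stimulated libraries against the 2 untreated ones with genotype as a term, and a gene was called where its Benjamini-Hochberg adjusted p over all 12052 genes tested was under 0.05. Of the 44 genes 9 rose (20.5%), where 17.2% of all genes tested were called higher. The 14 that fell (31.8%) stand beside 14.9% of all genes tested, and 21 were not called. Most genes of that background are far less abundant than the 44, and the difference in share was not tested. The median fitted log2 change of the 44 was 0.09, and on the unscaled FPKM scale the median was -0.02 in KO and -0.05 in WT cells, beside -0.11 and -0.05 over all genes, so the balance of the list as a whole lies near 0 and its sign depends on the scaling. The 7 macrophage markers, with Cd68 of the 44 genes among them, summed to 6072 and 7426 FPKM in stimulated KO and WT PM. Their sum, most of it Lyz2, was 8399 and 10096 FPKM in untreated KO and WT PM. Lyz2, Cd68 and Itgam fell in both genotypes, while Csf1r and Adgre1 fell in KO only. Fcgr1 rose, with 25.2 and 62.3 FPKM in stimulated KO and WT PM, against 1.94 and 3.95 FPKM in untreated KO and WT PM. Mertk rose as well in both genotypes. The part of these markers in the falls was not tested.

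**Figure D2:**
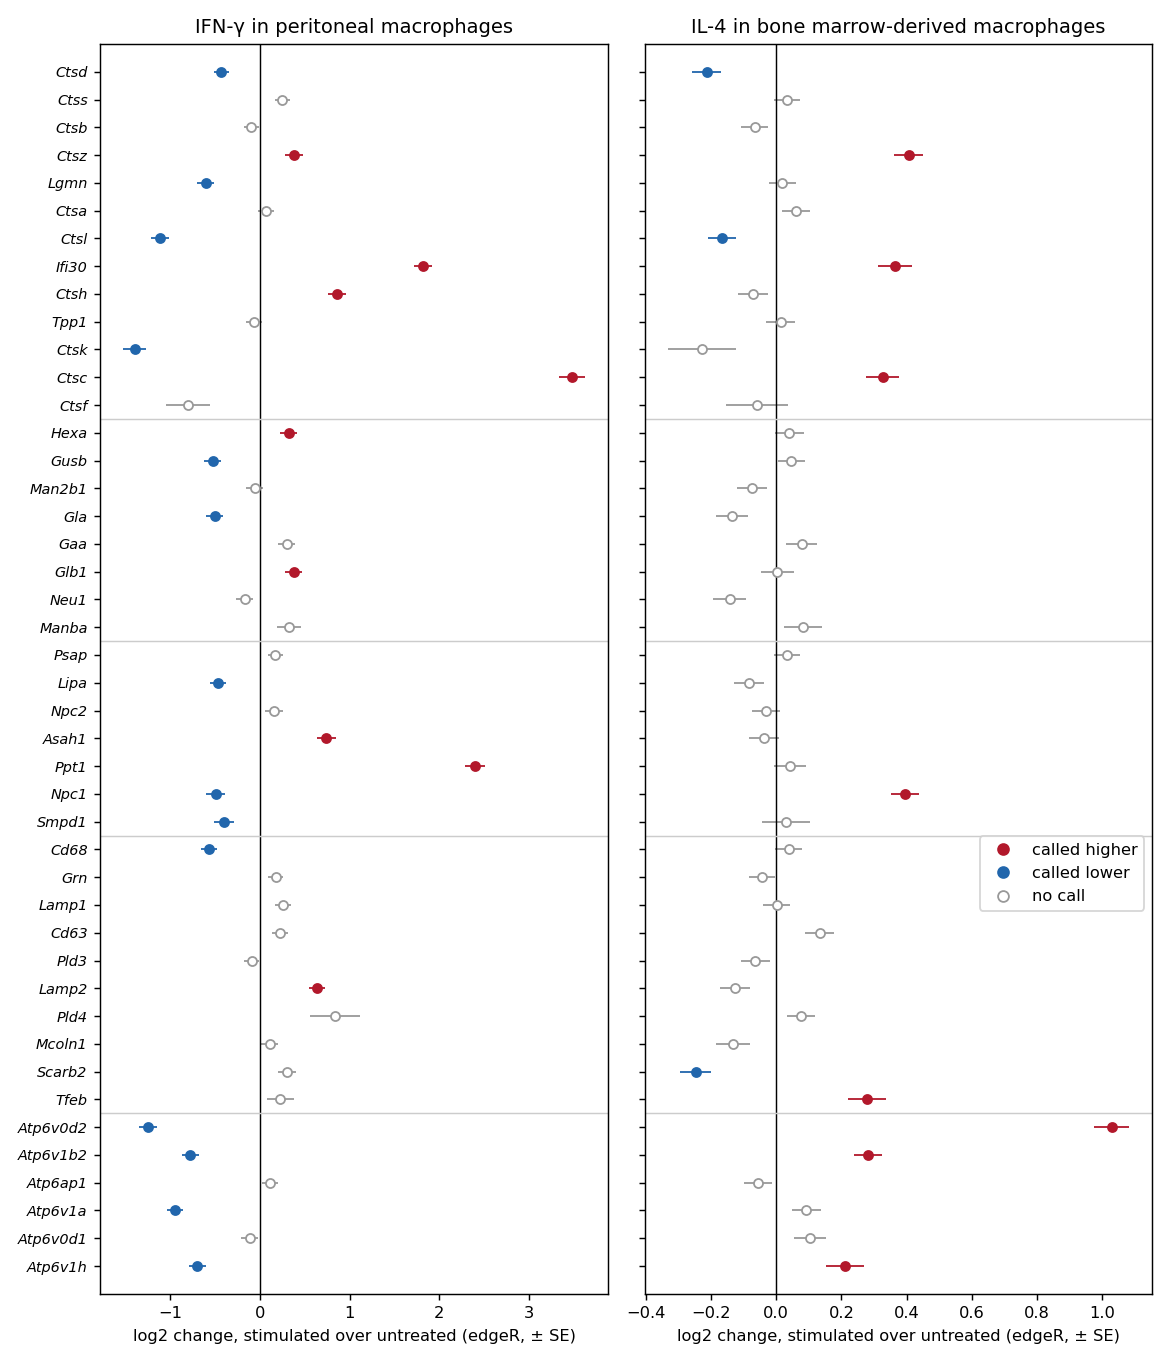
Log2 change with the cytokine, stimulated over untreated, for each of the 44 genes (edgeR estimate with its SE as a bar) with IFN-gamma in PM (left) and IL-4 in BMDM (right); the horizontal scales differ. Filled red points were called higher, filled blue points called lower, open points not called, and the 4 blue pump subunits in PM have no red one beside them.

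Among the proteases and Ifi30, 4 of 13 rose and 4 fell. Ctsc, which encodes the dipeptidyl peptidase cathepsin C that activates granule serine proteases, rose most. Ctsc had 181 and 278 FPKM in stimulated KO and WT PM, against 20.7 and 21.5 FPKM in untreated KO and WT PM. The log2 change was 3.49 (SE 0.14, adjusted p = 4.45e-05 by edgeR), and the stimulated libraries lay far above the untreated ones. Ifi30, the gamma-interferon-inducible thiol reductase that unfolds antigens, had 1004 and 978 FPKM in stimulated KO and WT PM, against 295 and 304 FPKM in untreated KO and WT PM (log2 change 1.82, SE 0.10). The genotypes were nearly level for Ifi30 in both states. Ctsh, an aminopeptidase, had 317 and 363 FPKM in stimulated KO and WT PM, against 180.1 and 221 FPKM in untreated KO and WT PM (log2 change 0.86, SE 0.10). Ctsz, a carboxypeptidase, rose least (log2 change 0.38, SE 0.10), with 1956 and 1797 FPKM in stimulated KO and WT PM, against 1496 and 1580 FPKM in untreated KO and WT PM. Neither set of libraries overlapped the other for any of these 4 genes. How many of all genes show no overlap between 2 libraries and 2 others was not counted, here or below. Such statements describe the values and add no support to a call.

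The 4 proteases that fell were Ctsk, Ctsl, Lgmn and Ctsd. Ctsk had 148 and 87.2 FPKM in stimulated KO and WT PM, against 373 and 276 FPKM in untreated KO and WT PM (log2 change -1.40, SE 0.13, adjusted p = 0.000694 by edgeR). Ctsl, the endopeptidase cathepsin L, had 208 and 244 FPKM in stimulated KO and WT PM, against 464 and 587 FPKM in untreated KO and WT PM (log2 change -1.12, SE 0.10). In both genes the lower untreated library was still well above the higher stimulated one. Lgmn, an asparaginyl endopeptidase that also matures other cathepsins, had 413 and 658 FPKM in stimulated KO and WT PM, against 738 and 977 FPKM in untreated KO and WT PM (log2 change -0.61, SE 0.10). Ctsd had 7439 and 9184 FPKM in stimulated KO and WT PM, against 10859 and 13046 FPKM in untreated KO and WT PM (log2 change -0.43, SE 0.08, adjusted p = 0.0123 by edgeR). Within each state the KO library was the lower one for Ctsl, Lgmn and Ctsd. DESeq2 made no call on Ctsd or Ctsz. Ctss, Ctsb, Ctsa, Ctsf and Tpp1 were not called, and their fitted log2 changes ran between -0.81 for Ctsf and 0.25 for Ctss. Without the filter on low counts Ctss was called higher and Ctsf lower, and limma also called Ctsf lower.

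**Figure D3:**
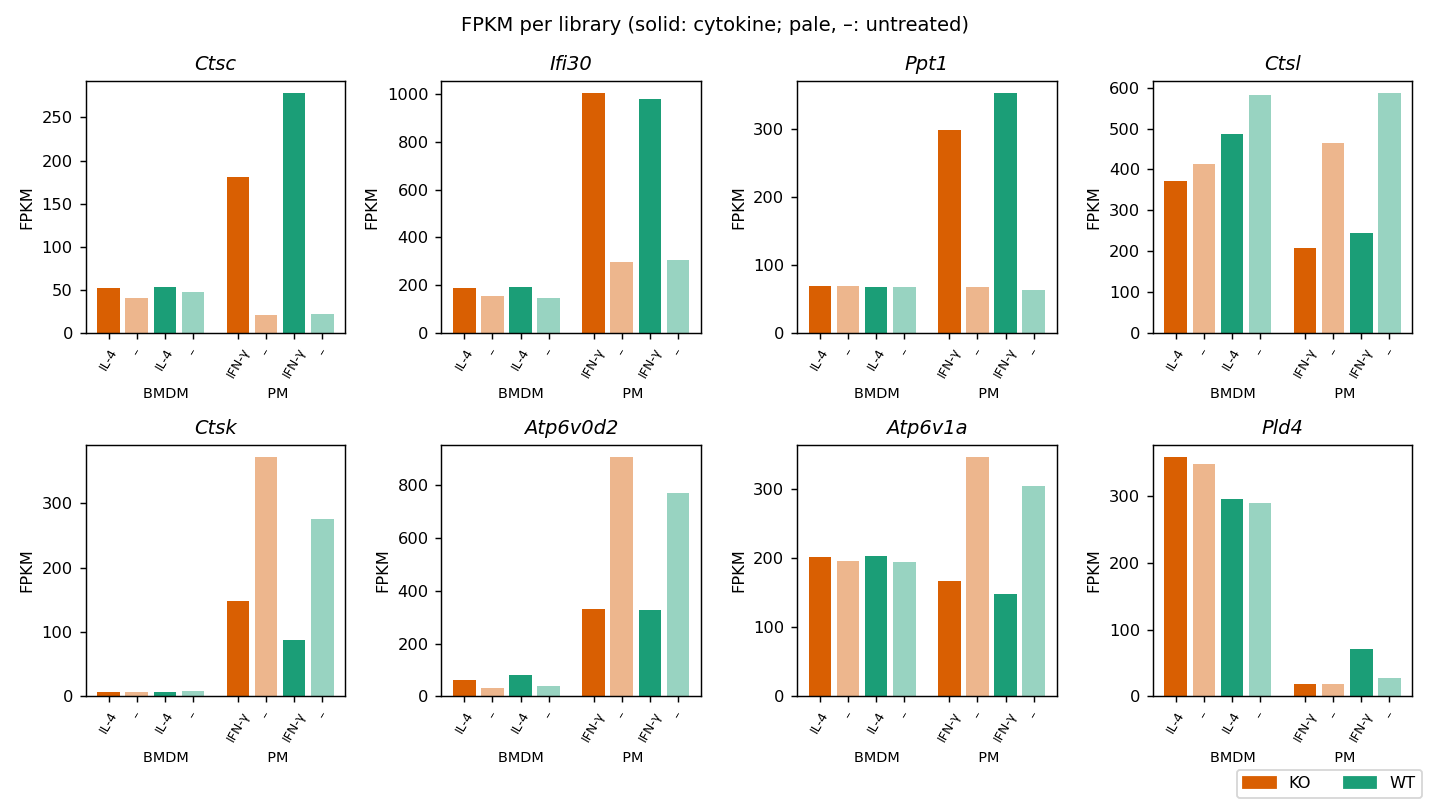
FPKM of 8 lysosomal genes in each library (1 bar per library, orange for KO and green for WT, solid for cytokine-stimulated and pale for untreated cells; BMDM at the left of each panel and PM at the right, each panel with its own scale). Ctsc, Ifi30 and Ppt1 have their tall bars in IFN-gamma-stimulated PM, Ctsk, Atp6v0d2 and Atp6v1a in untreated PM, and Pld4 in BMDM.

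The pattern TTCNNNGAA of a gamma-activated site was in the promoter window of 1 of the 37 genes (2.70%), Ctsc, against 9.55% of all genes. This search was added after seeing the data, and a part of the site in the response of Ctsc was not tested. The site is shown with 12 bases on each side, at chr7:88277837-88277869 (plus strand), its first base 236 bases upstream of the start site.
Ctsc: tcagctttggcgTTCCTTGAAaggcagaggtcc

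The pattern GAAANNGAAA of an interferon-stimulated response element, searched on both strands, was in Ctss, Lamp1 and Pld3 (8.11% of 37, against 3.99% of all genes), none of which was called with IFN-gamma in the filtered edgeR fit. The E-box core was in 2 of the 7 genes that rose and have a window, in 5 of 10 that fell and in 6 of 20 not called. Its longer form was in 1 of 7, 3 of 10 and 3 of 20.

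The 8 glycosidases, which strip sugars from glycoproteins and glycolipids, moved little: 2 rose and 2 fell. Glb1, beta-galactosidase, had 70.6 and 82.3 FPKM in stimulated KO and WT PM, against 56.2 and 70.1 FPKM in untreated KO and WT PM (log2 change 0.38, SE 0.10). Hexa, the alpha subunit of beta-hexosaminidase, had 631 and 830.1 FPKM in stimulated KO and WT PM, against 536 and 717 FPKM in untreated KO and WT PM (log2 change 0.32, SE 0.09). The stimulated KO library lay below the untreated WT library for Hexa, so the 2 states overlap across genotypes, and for Glb1 those 2 libraries nearly met. Neither call was made by DESeq2 or limma. Gusb, beta-glucuronidase, had 319.7 and 333 FPKM in stimulated KO and WT PM, against 519.6 and 488 FPKM in untreated KO and WT PM (log2 change -0.53, SE 0.09). Gla, alpha-galactosidase A, had 90.5 and 93.8 FPKM in stimulated KO and WT PM, against 148 and 132 FPKM in untreated KO and WT PM (log2 change -0.51, SE 0.10). Neither Gusb nor Gla overlapped between the states. Gaa, Neu1, Man2b1 and Manba were not called.

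Of the 7 genes of lipid breakdown and transfer, 2 rose and 3 fell. Ppt1, a thioesterase that removes fatty acids from cysteines of proteins, had 297 and 352 FPKM in stimulated KO and WT PM, against 67.8 and 63.1 FPKM in untreated KO and WT PM. Its log2 change was 2.40 (SE 0.11, adjusted p = 6.84e-05 by edgeR), the second largest of the 44. Ppt1 overlaps Cap1 on the opposite strand by 129 bases, and Cap1 had 258 to 342 FPKM across the 8 libraries; the sources used here do not say whether the counting used strand. Ctsa likewise overlaps Pltp by 311 bases, Ctsb overlaps Fdft1 by 774 and Npc1 overlaps Rmc1 by 319, all on opposite strands, and Glb1 shares 165 bases with Tmppe on the same strand. Asah1, acid ceramidase, had 274 and 367 FPKM in stimulated KO and WT PM, against 194 and 211 FPKM in untreated KO and WT PM (log2 change 0.74, SE 0.10). In both genes the stimulated libraries did not overlap the untreated ones.

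Npc1, the membrane protein that exports cholesterol from the lysosome, fell with IFN-gamma. It had 64.7 and 83.3 FPKM in stimulated KO and WT PM, against 109 and 111 FPKM in untreated KO and WT PM (log2 change -0.49, SE 0.11). Lipa, the acid lipase of cholesteryl esters and triglycerides, had 551 and 633 FPKM in stimulated KO and WT PM, against 868 and 882 FPKM in untreated KO and WT PM (log2 change -0.47, SE 0.09). Smpd1, acid sphingomyelinase, had 17.5 and 19.9 FPKM in stimulated KO and WT PM, against 27.3 and 25.5 FPKM in untreated KO and WT PM (log2 change -0.40, SE 0.11), a call that DESeq2 did not make. All 3 genes were lower in each stimulated library than in each untreated one. Npc2, the soluble partner that hands cholesterol to Npc1, and Psap were not called, with log2 changes of 0.16 and 0.17.

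Among the 10 membrane proteins, regulators and others, 1 rose and 1 fell. Lamp2, a membrane glycoprotein needed for fusion with autophagosomes, had 428 and 393 FPKM in stimulated KO and WT PM, against 353 and 278 FPKM in untreated KO and WT PM (log2 change 0.64, SE 0.09). On the log2(FPKM + 1) scale used for limma its change was 0.39. Its expected count was 11453 and 11605 in stimulated KO and WT PM, against 8471 and 7213 in untreated KO and WT PM. What sets the FPKM and count values of Lamp2 apart was not tested. Cd68, the macrophage marker macrosialin, had 1549 and 1711 FPKM in stimulated KO and WT PM, against 2626 and 2536 FPKM in untreated KO and WT PM (log2 change -0.57, SE 0.09). Neither gene overlapped between the states. Lamp1, the tetraspanin gene Cd63, the enzyme receptor gene Scarb2, the calcium channel gene Mcoln1, Tfeb, Grn, Pld3 and Pld4 were not called, although Lamp1 and Pld4 were called higher without the filter on low counts and Pld4 also by DESeq2.

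Of the 6 genes of the proton pump, 4 fell and none rose. Atp6v0d2 had 329 and 328 FPKM in stimulated KO and WT PM, against 907 and 770.1 FPKM in untreated KO and WT PM (log2 change -1.25, SE 0.10, adjusted p = 0.000363 by edgeR). Atp6v1a, the catalytic A subunit that hydrolyses ATP, had 168 and 149 FPKM in stimulated KO and WT PM, against 347 and 304 FPKM in untreated KO and WT PM (log2 change -0.94, SE 0.09). Atp6v1b2, the B subunit that pairs with it, had 274 and 271 FPKM in stimulated KO and WT PM, against 542 and 462 FPKM in untreated KO and WT PM (log2 change -0.78, SE 0.09). Each of these genes was lower in both stimulated libraries than in either untreated one. Atp6v1h, a regulatory subunit, had 55.6 and 49.6 FPKM in stimulated KO and WT PM, against 93.9 and 88.5 FPKM in untreated KO and WT PM (log2 change -0.70, SE 0.10). Atp6v0d1 and the accessory gene Atp6ap1 were not called, with log2 changes of -0.12 (SE 0.09) and 0.11 (SE 0.09). The summed share of the 6 genes was 0.289% and 0.276% of all FPKM in stimulated KO and WT PM, against 0.540% and 0.454% in untreated KO and WT PM.

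In a list of 82 other lysosomal genes, of which 80 were tested, IFN-gamma raised 16 (20%) and lowered 21 (26.2%) by edgeR, beside the 17.2% and 14.9% of all genes given above. DESeq2 raised 9 of them, where it called 7.52% of all genes higher, and lowered 8, where it called 5.03% lower. Limma raised 9, where it called 14% higher, and lowered 26, where it called 16.6% lower. Of its 12 tested pump subunits 3 rose and 2 fell, so the genes of the pump did not all move one way. Among the list's largest rises were the protease inhibitor gene Cst7 (11.7 and 4.87 FPKM in stimulated KO and WT PM, against 0.28 and 0 FPKM in untreated KO and WT PM), Ctse, the chloride transporter gene Clcn7 and the GM2 activator gene Gm2a. Clcn7 had a log2 change of 1.32 (SE 0.10) and Gm2a 1.05 (SE 0.09). The largest falls were in Sort1, a receptor that sorts enzymes to the lysosome (log2 change -2.13, SE 0.17), the 2 channel genes Tpcn1 and Tpcn2 (-1.71 and -1.61), the sulfatase gene Sgsh (-1.38) and the nucleoside transporter gene Slc29a3 (-1.22).

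IL-4 moved fewer of the 44 genes in BMDM and moved them less, with 3 of the 6 pump genes called higher and 0 lower. Of the 44 genes 8 rose (18.2%), where edgeR called 12% of 12879 genes tested higher. A further 3 fell (6.82%), where it called 9.23% lower, and 33 were not called. Here too most genes of the background are far less abundant than the 44, and the difference in share was not tested. With protein-coding genes alone 5 fell, where 10.9% of genes did. The pump genes contributed 3 of the 8 rises, the proteases 3, the lipid genes 1 and the membrane proteins and regulators 1. No glycosidase was called, and DESeq2 and limma called none. An unadjusted p under 0.05 by edgeR was found for 2 of the 8, and the share of all genes at that limit was not counted. With protein-coding genes alone Gla was called lower.

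Atp6v0d2 rose most, with 63.0 and 80.1 FPKM in stimulated KO and WT BMDM, against 32.8 and 39.0 FPKM in untreated KO and WT BMDM (log2 change 1.03, SE 0.05, adjusted p = 9.06e-07 by edgeR). It was the only 1 of the 44 genes to pass 1.5-fold in either genotype with IL-4, where 3.15% of genes in KO and 3.02% in WT rose by as much. Atp6v1b2 had 254 and 258 FPKM in stimulated KO and WT BMDM, against 214 and 218 FPKM in untreated KO and WT BMDM (log2 change 0.28, SE 0.04). Atp6v1h had 43.1 and 41.0 FPKM in stimulated KO and WT BMDM, against 35.9 and 38.9 FPKM in untreated KO and WT BMDM (log2 change 0.21, SE 0.06), a call that neither DESeq2 nor limma made. The groups did not overlap for any of the 3. Atp6v1a, Atp6v0d1 and Atp6ap1 were not called.

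The proteases that rose with IL-4 were Ctsz, Ifi30 and Ctsc. Ctsz had 981 and 892 FPKM in stimulated KO and WT BMDM, against 779 and 675 FPKM in untreated KO and WT BMDM (log2 change 0.41, SE 0.04). Ifi30 had 188 and 191 FPKM in stimulated KO and WT BMDM, against 155 and 147 FPKM in untreated KO and WT BMDM (log2 change 0.36, SE 0.05). Ctsc had 51.6 and 53.8 FPKM in stimulated KO and WT BMDM, against 40.3 and 47.2 FPKM in untreated KO and WT BMDM (log2 change 0.33, SE 0.05). All 3 genes were higher in each stimulated library than in each untreated one. Ctsd had 5409 and 5614 FPKM in stimulated KO and WT BMDM, against 6683 and 6444 FPKM in untreated KO and WT BMDM (log2 change -0.21, SE 0.04). Ctsl had 373 and 486 FPKM in stimulated KO and WT BMDM, against 413 and 583 FPKM in untreated KO and WT BMDM (log2 change -0.17, SE 0.04). For Ctsl the stimulated WT library was above the untreated KO library, so the 2 states overlapped across genotypes.

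Outside the pump and the proteases, Npc1 and Tfeb rose and Scarb2 fell with IL-4. Npc1 had 169.6 and 161 FPKM in stimulated KO and WT BMDM, against 132 and 126 FPKM in untreated KO and WT BMDM (log2 change 0.40, SE 0.04). Tfeb, the regulator of lysosomal genes, had 35.9 and 36.1 FPKM in stimulated KO and WT BMDM, against 31.9 and 29.1 FPKM in untreated KO and WT BMDM (log2 change 0.28, SE 0.06), a call that DESeq2 did not make. Scarb2, which carries beta-glucocerebrosidase to the lysosome, had 49.8 and 44.2 FPKM in stimulated KO and WT BMDM, against 59.8 and 54.8 FPKM in untreated KO and WT BMDM (log2 change -0.25, SE 0.05). None of the 3 genes overlapped between stimulated and untreated cells. Of the 82 other lysosomal genes (80 tested) IL-4 raised 17 by edgeR (21.2%), where 12% of all genes were called higher. It lowered 11 (13.8%), where 9.23% of all genes were called lower. By edgeR 2 of the list's 12 tested pump subunits rose and 0 fell. DESeq2 raised 14 of the list, where it raised 3.81% of all genes, and lowered 6, where it lowered 2.31%. Among the rises was the pump subunit gene Atp6v0a1 (287 and 321 FPKM in stimulated KO and WT BMDM, against 123 and 124 FPKM in untreated KO and WT BMDM, log2 change 1.34). The other named rises were Cst7 (log2 change 1.48), the phospholipase gene Pla2g15 (0.91) and the peptide transporter gene Slc15a3 (0.74). The named falls were the metal transporter gene Slc11a1 (-0.40), Sort1 (-0.36), Slc15a4 (-0.31), Sgsh (-0.25) and Gnptab (-0.24), a gene of the mannose 6-phosphate tag.

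Both cytokines called 9 of the 44 genes, out of 23 called with IFN-gamma and 11 with IL-4. The share of all genes called with both, in the same or opposite directions, was not counted. Ctsc, Ctsz and Ifi30 rose with both, and Ctsd and Ctsl fell with both. Atp6v0d2, Atp6v1b2, Atp6v1h and Npc1 fell with IFN-gamma in PM and rose with IL-4 in BMDM, and no gene had the opposite pair of calls. The 2 cytokines were given to different cell types for different times, so these values stand side by side without a test of the difference.

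By edgeR none of the 44 genes was called for the knockout in PM. The edgeR fit with stimulus as a term called 0 of 44 higher and 0 lower, where it called 0.0249% of 12052 genes higher and 0.0083% lower. An unadjusted p under 0.05 was found for 11 of the 44, and the share of all genes at that limit was not counted. DESeq2 called 1 of the 44, Pld4, as lower, where it called 0.132% of genes lower, and limma called none. Over the 44 genes the median KO minus WT difference in log2(FPKM + 1) was -0.03 in untreated PM, beside 0.04 over all genes, and -0.07 in stimulated PM, beside -0.02 over all genes.

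**Figure D4:**
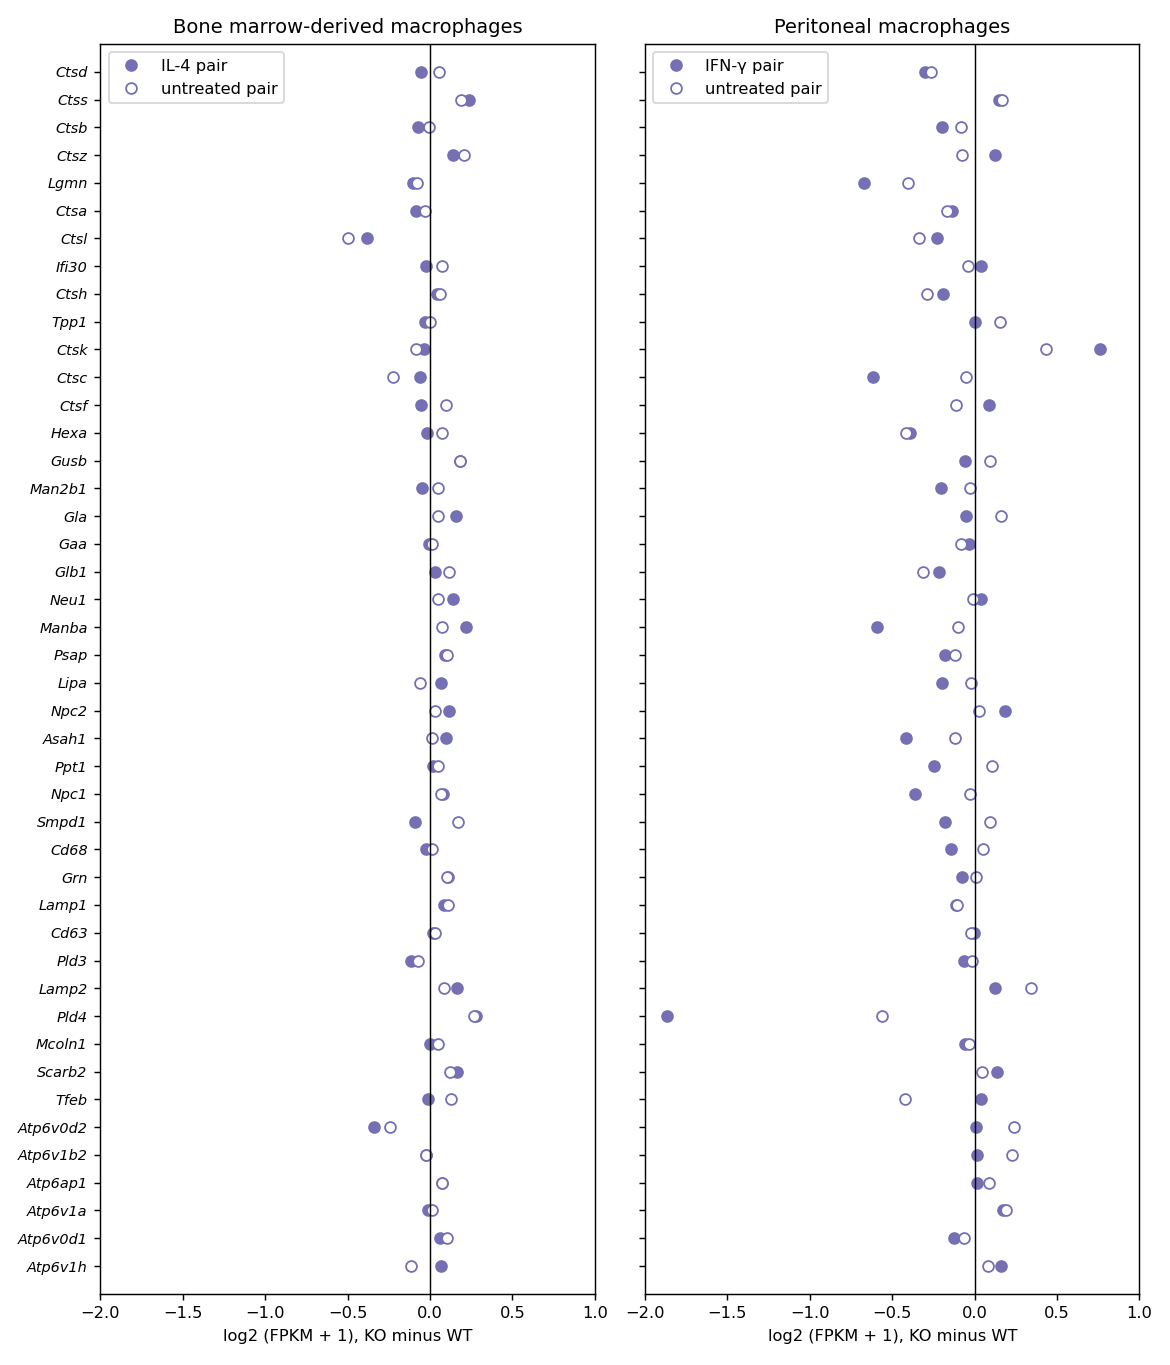
Difference in log2(FPKM + 1), KO minus WT, for each of the 44 genes in BMDM (left) and PM (right), 1 library per group: filled points compare cytokine-stimulated and open points untreated cells. Pld4 lies at -1.87 and -0.56 in PM and at 0.28 and 0.27 in BMDM, and Ctsl lies below 0 in all 4 pairs.

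Pld4 had the largest difference in PM. It had 18.6 and 18.1 FPKM in stimulated and untreated KO PM, against 70.5 and 27.2 FPKM in stimulated and untreated WT PM. The stimulated WT library stood above the other 3, and both KO libraries were below both WT libraries. The fitted log2 difference was -1.28 (SE 0.29) with an adjusted p of 0.237 by edgeR and 0.00561 by DESeq2. Pld4 is also expressed by B cells and plasmacytoid dendritic cells. The summed level of the B-cell markers, 5 of 6 of which were above 0 in each PM library, was 3.78 and 5.75 FPKM in stimulated and untreated KO PM, against 3.48 and 4.19 FPKM in stimulated and untreated WT PM, and that of 6 dendritic-cell markers was 1.41 and 1.87 FPKM, against 1.11 and 1.23 FPKM. Flt3 was at 0 in all 4 PM libraries and Siglech at or below 0.05 FPKM, while Zbtb46 had 0.04 to 0.49, Xcr1 0.17 to 0.73, Cd209a 0.06 to 0.31 and Bcl11a 0.07 to 1.02 FPKM. The part of these cells in the Pld4 difference was not tested.

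Ctsk, Lgmn and Hexa also differed in the same direction in both library pairs without a call. Ctsk had 148 and 373 FPKM in stimulated and untreated KO PM, against 87.2 and 276 FPKM in stimulated and untreated WT PM (log2 difference 0.59, SE 0.12, adjusted p = 0.233 by edgeR). Lgmn had 413 and 738 FPKM in stimulated and untreated KO PM, against 658 and 977 FPKM in stimulated and untreated WT PM (log2 difference -0.55, SE 0.10, adjusted p = 0.180 by edgeR). Hexa had 631 and 536 FPKM in stimulated and untreated KO PM, against 830.1 and 717 FPKM in stimulated and untreated WT PM (log2 difference -0.42, SE 0.09, adjusted p = 0.234 by edgeR). For Hexa both KO libraries were below both WT libraries, whereas for Ctsk and Lgmn the genotypes overlapped across states.

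In stimulated PM 1 of the 44 genes was at least 1.5-fold higher in KO (Ctsk, 0.76 on the log2 scale), where 4.05% of genes were, and 4 were at least 1.5-fold lower, where 4.45% of genes were. The 4 were Pld4 (-1.87), Lgmn (-0.67), Ctsc (-0.62) and Manba (-0.59), and Asah1 followed at -0.42. In untreated PM none of the 44 passed 1.5-fold, where 1.18% of genes were higher and 1.35% lower by that much. There the largest differences were in Pld4 (-0.56), Ctsk (0.43), Tfeb (-0.42), Hexa (-0.42), Lgmn (-0.40) and Lamp2 (0.34). For Lamp2 the edgeR fit on counts over both states gave a smaller log2 difference of 0.09 (SE 0.09). The KO response to IFN-gamma minus the WT response lay below 0 by 1.5-fold or more for 1 gene, Pld4 (-1.31), as it did for 4.45% of genes. Ctsc followed at -0.56, Manba at -0.49 and Ppt1 at -0.35. Npc1, at -0.33, had the larger fall in KO (-0.75, against -0.42 in WT), and Tfeb lay above 0 at 0.46. Each of these differences is 1 library pair against another and has no test.

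In BMDM the knockout moved 5 of the 44 genes by small amounts. By edgeR 3 were higher in KO (6.82%), where 1.51% of 12879 genes were. A further 2 were lower (4.55%), where 3.68% of genes were, and 39 were not called. Most genes of that background are far less abundant than the 44, and the difference in share was not tested. Ctsl had 373 and 413 FPKM in stimulated and untreated KO BMDM, against 486 and 583 FPKM in stimulated and untreated WT BMDM. Both KO libraries were below both WT libraries, and the log2 difference was -0.44 (SE 0.04, adjusted p = 0.000409 by edgeR). Pld4 had 359 and 348 FPKM in stimulated and untreated KO BMDM, against 296 and 290 FPKM in stimulated and untreated WT BMDM (log2 difference 0.28, SE 0.04, adjusted p = 0.0056 by edgeR). Both calls were also made by DESeq2 and limma.

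Fibroblast genes moved with genotype in BMDM. The summed level of 6 fibroblast and mesothelium markers was 171 and 199 FPKM in stimulated and untreated KO BMDM, against 352 and 374 FPKM in stimulated and untreated WT BMDM. Col1a1 made up most of it, with 93.7 and 109.6 FPKM in stimulated and untreated KO BMDM, against 199 and 209 FPKM in stimulated and untreated WT BMDM, while the mesothelial markers Upk3b and Msln were at 0. In PM, where the Ctsl difference had the same direction without a call (log2 difference -0.30), the sum was 79.1 and 114 FPKM in stimulated and untreated KO PM, against 101 and 125 FPKM in stimulated and untreated WT PM. The part of these cells in the difference of Ctsl was not tested.

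The other calls in BMDM depended on the tool: DESeq2 called 2 of the 44 genes higher, where 0.253% of genes were, and 1 lower, where 0.638% were, and limma 1 higher (0.578% of genes) and 1 lower (1.67% of genes). Ctss had 3076 and 3032 FPKM in stimulated and untreated KO BMDM, against 2608 and 2666 FPKM in stimulated and untreated WT BMDM (log2 difference 0.21, SE 0.04), and limma made no call. Gusb had 356 and 354 FPKM in stimulated and untreated KO BMDM, against 314 and 312 FPKM in stimulated and untreated WT BMDM (log2 difference 0.18, SE 0.04). Atp6v0d2 had 63.0 and 32.8 FPKM in stimulated and untreated KO BMDM, against 80.1 and 39.0 FPKM in stimulated and untreated WT BMDM (log2 difference -0.30, SE 0.05). Neither DESeq2 nor limma called Gusb or Atp6v0d2. In untreated BMDM 33 of the 44 genes were above 0 in the KO minus WT difference, all 8 glycosidases among them, but the median was 0.05 beside -0.0045 over all genes. In stimulated BMDM 23 of the 44 were above 0, 5 of the 8 glycosidases among them, with a median of 0.02 beside 0.0085 over all genes. Of the 82 other lysosomal genes (80 tested) edgeR called 2 higher in KO BMDM (2.5%), where 1.51% of all genes were. Among them was the pump subunit gene Tcirg1 (log2 difference 0.17). In that list 0 were lower, where 3.68% of all genes were. An unadjusted p under 0.05 was found for 21 of them, and the share of all genes at that limit was not counted.

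Whether the knockout differed between the cell types was tested in 1 edgeR fit over all 8 libraries, as the KO effect in BMDM minus that in PM. None of the 44 genes was called, where 0.106% of 13224 genes were. An unadjusted p under 0.05 was found for 13 of the 44, and the share of all genes at that limit was not counted. The largest difference was that of Pld4 (1.57, adjusted p = 0.133 by edgeR), which was lower in KO PM and higher in KO BMDM. By the same edgeR fit Ctsk differed by -0.64 (adjusted p = 0.169) and Manba by 0.54 (adjusted p = 0.198). Lgmn differed by 0.47 (adjusted p = 0.127) and Hexa by 0.46 (adjusted p = 0.122).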

How the data were processed

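RNA of 8 libraries, 1 per group, was measured. Per the submitters' processing notes, Bowtie2 2.2.5, RSEM (no version named there) and the mm10 build were used. The authors deposited an expected count and an FPKM value per gene; a gene missing from a table was set to 0. The deposited FPKM carry no scaling between libraries.

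Expected counts were rounded and fitted with edgeR 4.0.16 in R 4.3.3 (quasi-likelihood, TMM, filterByExpr), with genotype and stimulus as terms, for PM and BMDM apart; this leaves 1 residual degree of freedom, so any interaction adds to the spread. A call needs a Benjamini-Hochberg adjusted p over all genes of under 0.05. Each SE was derived from the log2 change and the square root of F. Library pairs were compared by log2(FPKM + 1) with no test. DESeq2 1.42.0, limma 3.58.1 on log2(FPKM + 1), RLE factors, no filter and protein-coding genes alone were alternatives. The script was tested on simulated data. The interaction over 8 libraries, which leaves 2 residual degrees of freedom, and the interferon motifs were added after seeing the data. Python 3.11.15 with pandas 2.3.3 and matplotlib 3.10.9 did the rest.

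The 44 genes and all lists were chosen with earlier results of these data known. Named were called genes in order of size, up to 8 per direction and role, up to 5 of the other lysosomal genes (a few of which are not reported here), and the 6 largest KO minus WT differences per pair. PCR copies are not independent molecules, so counting error is a lower limit.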

Additional observations from a re-analysis of the deposited data

Results flagged for a closer look

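In 13 cases the response to the cytokine, as log2(FPKM + 1) stimulated minus untreated, had opposite signs in KO and WT cells. Each response is 1 library against another, and the difference was not tested. The share of all genes with opposite signs was not counted. Several responses lie near 0, such as Psap at 0.0001 in WT BMDM and Atp6ap1 at -0.02 in KO PM. The deposited FPKM carry no scaling between libraries, so the sign of such a response can turn with rescaling. In PM there were 4. Tfeb responded by 0.36 in KO and -0.10 in WT (difference 0.46), and Manba, beta-mannosidase, by -0.03 in KO and 0.46 in WT (difference -0.49). Npc2 differed by 0.16 and Atp6ap1 by -0.0709. In BMDM there were 9, the largest in Smpd1, with -0.14 in KO and 0.12 in WT (difference -0.26). Manba differed by 0.14, Hexa by -0.0891, Glb1 by -0.0828, Ctsa by -0.0537, Ctss by 0.0527, Cd68 by -0.033, Ppt1 by -0.0278 and Psap by -0.0126. None of these 13 responses was called by edgeR for that cytokine.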

How the results depend on the processing

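No paired analysis was possible because every group holds 1 replicate, so that replicate numbers give no block; genotype and stimulus were terms of each fit. Under DESeq2, RLE factors, no filter, limma and protein-coding genes alone, 18 of the 23 calls with IFN-gamma, 9 of the 11 with IL-4 and 2 of the 5 for genotype in BMDM were kept throughout, and no called gene changed direction. Calls were also gained: Ctss and Lamp1 (no filter) and Pld4 (no filter, DESeq2) as higher and Ctsf (no filter, limma) as lower with IFN-gamma, Gla and Lamp2 (protein-coding) as lower with IL-4, and Ctsz (RLE, no filter, protein-coding) as higher in KO BMDM. With DESeq2 IFN-gamma raised 9 (limma 9) and lowered 8 of the other lysosomal genes, against 16 and 21 by edgeR; IL-4 lowered 6, against 11. For KO in PM DESeq2 lowered 1 of the 44 genes (Pld4), against 0. For KO in BMDM limma raised 1, against 3, and DESeq2 and limma each lowered 1, against 2. With protein-coding genes alone IL-4 lowered 5, against 3. Rescaling FPKM to equal medians turned the sign of 3 medians over the 44 genes: the IFN-gamma response in KO PM was 0.0789, against -0.0246, its difference from the WT response 0.0086, against -0.0538, and the IL-4 response in WT BMDM 0.0216, against -0.0098. The causes were not tested. With 1 library per group, no value carries an error between cultures, and genes under about 10 FPKM, such as Ctsf, rest on few counts in PM.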
